A study of Sus scrofa with 6 samples.

Results

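Of the 104820 cell barcodes deposited for porcine midbrain-like organoids, 68121 came from days 28 and 45 (D28 and D45). DLX-positive GABAergic cells of these days numbered 2111. They were chosen from the counts themselves. A cell had to hold at least 2000 UMIs (unique molecular identifiers, each marking a captured mRNA molecule) and at most 7000 detected genes, which 41956 cells did. It had to hold a UMI of at least 2 of the 3 GABA genes GAD1, GAD2 and SLC32A1, which 2988 cells did, and in addition a UMI of DLX1 or DLX5 and none of GATA3. The 861 cells that passed the GABA gate without a UMI of DLX1 or DLX5 are called DLX-negative, whatever their GATA3 count. Among these, the 41 cells with a UMI of GATA3 are called GATA3-positive, and 16 cells with both DLX and GATA3 UMIs belonged to no class.

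The organoids were grown from 1 porcine embryonic stem cell line, IVF_1_ pESC_FIW, which came from in vitro fertilized embryos, by ventral midbrain patterning with SHH, a GSK3 inhibitor and FGF8. The labels name no genetic change and no drug arm, and the groups differ in day. On each of days 11, 28 and 45, 2 libraries (A and B), described in the study as biological duplicates, were prepared with GEM-X 3' reagents of 10x Genomics. All samples are labelled as midbrain dopaminergic neurons.

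GABAergic neurons make the inhibitory transmitter GABA with the glutamate decarboxylases encoded by GAD1 and GAD2 and load it into vesicles with the transporter encoded by SLC32A1. In the embryo, the homeobox factors DLX1, DLX2, DLX5 and DLX6 mark the GABAergic lineages of the ventral forebrain, that is the ganglionic eminences of the telencephalon and parts of the hypothalamus and prethalamus. GABAergic neurons of the midbrain and of more caudal regions instead depend on GATA2, GATA3 and TAL factors, which is why the gate separates DLX from GATA3.

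The DLX genes lie in pairs that face each other. On Sscrofa11.1, DLX1 (15:78186667-78191788, plus strand) and DLX2 (15:78200696-78204264, minus strand) are 8908 bases apart, and DLX6 (9:76623489-76630296, plus strand) and DLX5 (9:76639915-76643689, minus strand) are 9619 bases apart. GAD1 (15:76991863-77034819) lies 1151848 bases before DLX1 on the same chromosome. GAD2 (10:49316682-49391013) and GATA3 (10:63367684-63397977) share chromosome 10, and SLC32A1 is at 17:41689479-41694560. The windows from 250 bases before to 50 bases after the annotated starts of DLX1 (15:78186417-78186716, plus strand) and DLX5 (9:76643640-76643939, minus strand) are shown in the direction of transcription, from RefSeq, because these genes define the cells. Capitals mark a match to the homeodomain core TAATTA or TAATTG on either strand.
DLX1: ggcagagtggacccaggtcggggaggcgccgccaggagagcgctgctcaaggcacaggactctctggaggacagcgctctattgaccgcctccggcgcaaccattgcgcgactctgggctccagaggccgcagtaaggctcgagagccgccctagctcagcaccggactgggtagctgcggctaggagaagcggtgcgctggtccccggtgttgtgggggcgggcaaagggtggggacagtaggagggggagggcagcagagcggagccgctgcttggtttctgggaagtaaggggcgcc
DLX5: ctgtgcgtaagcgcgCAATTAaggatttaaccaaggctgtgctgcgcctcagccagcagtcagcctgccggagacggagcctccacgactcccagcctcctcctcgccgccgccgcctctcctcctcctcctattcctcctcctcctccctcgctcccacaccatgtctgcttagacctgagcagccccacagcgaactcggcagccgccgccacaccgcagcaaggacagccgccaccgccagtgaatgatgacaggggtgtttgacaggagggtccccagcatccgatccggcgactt
The DLX5 window holds the reverse strand form of TAATTG at position -235 from the annotated start, and the DLX1 window holds no match. Windows were searched for 12 of the genes described here, and 1 held a match. Of all 19556 promoter windows of this length, 4.11% held TAATTA, 6.73% TAATTG and 10.22% either.

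The gate counted UMIs, so the levels of its genes are a description. DLX1 was at 108, 331, 246 and 261 CPM (a gene's UMIs scaled to the summed UMIs of the class in that library) in the DLX-positive cells of D28 A, D28 B, D45 A and D45 B, and DLX5 was at 447, 396, 254 and 269. GAD1 was at 223, 238, 335 and 308 CPM in the same order, and at 121, 174, 202 and 248 in the DLX-negative cells. GAD2 was at 332, 767, 647 and 688 CPM against 227, 709, 402 and 548. Both decarboxylases were thus higher in DLX-positive cells in each library, by differing margins, while SLC32A1 was higher in 3 of the 4 (60.9, 37.7, 53.1 and 54.5 against 30.2, 39.8, 28.8 and 42.3 CPM).

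Many members passed the DLX gate with few molecules. Exactly 1 UMI of DLX1 and DLX5 together was held by 4, 42, 188 and 139 members in D28 A, D28 B, D45 A and D45 B, exactly 2 by 1, 37, 170 and 110, and 3 or more by 12, 309, 582 and 517. Both genes were seen in 8, 274, 520 and 441 members, DLX1 alone in 2, 41, 174 and 146, and DLX5 alone in 7, 73, 246 and 179. Just outside the rule, 16, 200, 330 and 259 cells with a DLX UMI held only 1 of the 3 GABA genes, and 101, 308, 456 and 356 held none. The GABA gate therefore took 12.7%, 43.7%, 54.6% and 55.6% of the cells with a DLX UMI. Free RNA in droplets can place a UMI in a cell that does not express the gene. DLX1 was seen in 2.27% to 3.78% and DLX5 in 0.505% to 2.74% of oligodendrocyte-gated cells of D28 B, D45 A and D45 B (D28 A held only 4 such cells). In fibroblast-gated cells the shares were 1.87% to 4.75% and 1.31% to 3.32%. Median depth per library over the oligodendrocyte-gated and fibroblast-gated cells was 11952 to 18672 UMIs.

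DLX-positive cells were scarce in D28 A and common in D45. They numbered 17, 388, 940 and 766 in D28 A, D28 B, D45 A and D45 B. As a share of cells within the limits this was 0.184% (0.107% to 0.294%, exact Clopper-Pearson 95% interval, which covers counting error only), 3.5% (3.17% to 3.86%), 8.95% (8.41% to 9.51%) and 6.88%. The duplicates of D28 differed from each other by more than the D45 libraries did, and with 2 libraries a day no test of the days was run. On D11, 3 of 12 gated cells in library A and 2 of 19 in library B met the rule. Of the gated GABAergic cells, 70.8% (48.9% to 87.4%), 78.5% (74.7% to 82.1%), 63.4% (60.9% to 65.8%) and 77.6% were DLX-positive, and the days overlapped. Depth touches these shares, since a shallow cell can miss its DLX transcripts. After thinning, DLX-positive cells were 0.0541%, 0.831%, 2.0% and 1.81% of the cells within the limits, and 100% (5 of 5 cells, 47.8% to 100%), 59.0% (50.8% to 66.8%), 39.0% (34.8% to 43.2%) and 53.0% (47.9% to 58.1%) of the gated cells. The thinned D28 shares of gated cells thus both lay above those of D45, although the intervals of D28 A and D28 B overlapped that of D45 B.

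**Figure D1:**
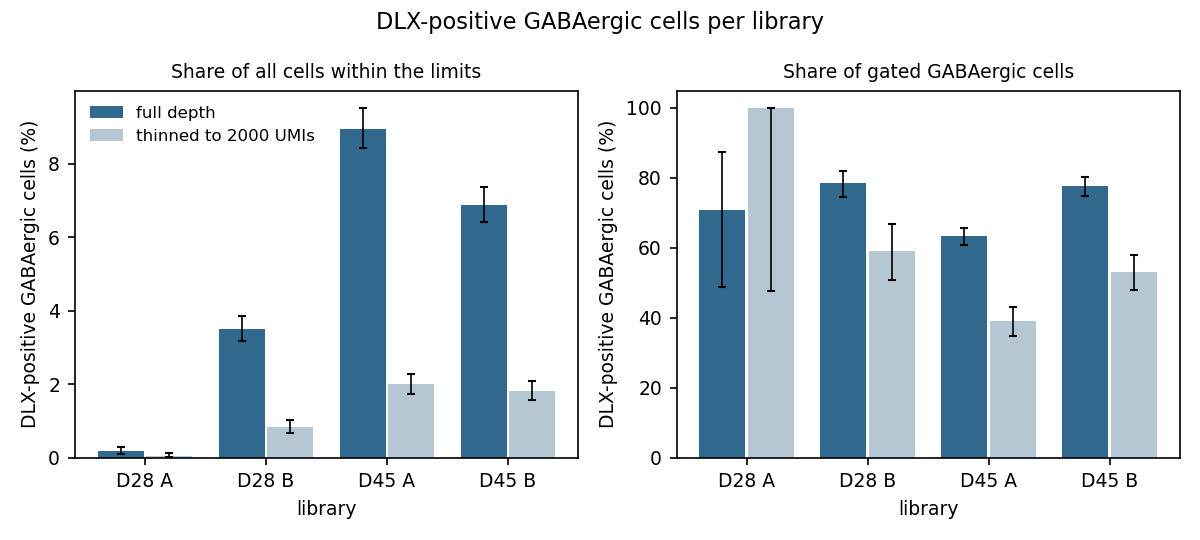
DLX-positive cells in each library, as a percentage of all cells within the limits (left) and of gated GABAergic cells (right), at full depth (dark bars) and with each cell thinned to 2000 UMIs before the gate (light bars), with exact 95% intervals. D28 A holds 0.184% and D45 A 8.95% of cells within the limits, and thinning lowers each share on the left.

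The members were neurons by their transcripts. STMN2, a neuronal tubulin regulator, was detected in 94.1%, 99.2%, 96.9% and 98.4% of them, and after thinning in 83.0% to 93.3%, against 58.1% to 68.3% of oligodendrocyte-gated cells of D28 B, D45 A and D45 B, and 18.7% to 27.9% after thinning. SNAP25, a protein of the synaptic release machinery, was detected in 88.2%, 88.7%, 94.8% and 93.9% of members. These shares of SNAP25 are given without a background share of other cells, so they are a description. Markers of other neuron types were low. SLC17A6, the vesicular glutamate transporter, was detected in 0%, 7.22%, 5.96% and 6.01% of members, GATA2 in at most 0.638%, and TAL1 and TAL2 in none. The dopamine transporter gene SLC6A3 was detected in at most 1.17%, although TH, the first enzyme of dopamine synthesis, was detected in 17.6%, 45.4%, 23.4% and 32.0%, above the 2.95% to 9.15% of fibroblast-gated cells. The GABA and DLX genes were required by the rule, so they are no check of the label.

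Median depth was 7268, 8771.5, 9576 and 8562 UMIs in DLX-positive cells and 7401, 6880.5, 7359 and 6713.5 in DLX-negative cells, so the DLX-positive cells were deeper in 3 of the 4 libraries. A doublet caller marked 5.88%, 3.09%, 5.11% and 3.26% of DLX-positive and 14.3%, 6%, 6.16% and 7.8% of DLX-negative cells. These cells were kept, and their removal is among the alternatives. Libraries shared 55 to 119 barcodes, but at most 1 barcode was shared between the DLX-positive cells of any pair of libraries. No gated cell had over 10% mitochondrial UMIs.

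The first comparison asked which other genes set DLX-positive apart from DLX-negative GABAergic cells of the same library. Other DLX factors, the ventral forebrain factors NKX2-1, ISL1 and NR2F2, the hypothalamic factor HMX2 and the neuropeptide gene GAL were higher, by 2.21-fold to 12.8-fold. The forebrain and hypothalamic lists split, since EBF1, MEIS1, FOXP2, FOXP1, CXCR4 and SIM1 of these lists were lower. The midbrain factors EN1, EN2 and PAX5 and the opioid precursor PENK were lower, and so was SLC17A6. The rule keeps GATA3-positive cells in the DLX-negative class alone, so falls of genes that are high in them can be partly built in. EN1 no longer passed when those cells were left out, and PAX5 went the other way in D45 B. Counts were summed per class and library and compared within D28 B, D45 A and D45 B, since D28 A held only 7 DLX-negative cells. Its values are printed for completeness and entered only alternative fits with a minimum of 5 cells per sum. The quasi-likelihood test of edgeR was run on 13386 genes. After adjustment by the method of Benjamini and Hochberg, 1514 (11.3%) passed an adjusted p of 0.05, 701 (5.24%) higher and 813 (6.07%) lower. The 6 gate genes were left out of this test.

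Within the DLX network, 2 of the 3 genes tested were higher and none lower, with a median log2 fold change of 1.62 against -0.01 over all genes tested. DLX2, the neighbour of DLX1, was at 6.77, 20.8, 13.1 and 14.5 CPM in DLX-positive cells of D28 A, D28 B, D45 A and D45 B and at 0, 2.49, 0.632 and 1.69 in DLX-negative cells, a log2 fold change of 3.68 ± 0.37 (SE, adjusted p = 0.00113). DLX6, the neighbour of DLX5, was at 237, 114, 66.8 and 55.3 CPM against 75.6, 23.6, 15.2 and 38.9 (1.62 ± 0.28, adjusted p = 0.00868). Each gene was higher in all 4 libraries, and the 3 tested libraries did not overlap between the classes. The other gene tested, ETV1, did not pass.

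Regional factors of the ventral forebrain moved in both directions. Of 9 tested factors of the medial ganglionic eminence and preoptic area, 1 was higher and 1 lower (median 0.2). Among all genes tested, 5.24% were higher and 6.07% lower, so these counts do not set this list apart. NKX2-1, which specifies the medial ganglionic eminence and the ventral hypothalamus, was at 94.8, 79.1, 57.4 and 70.4 CPM against 15.1, 13.7, 19.6 and 37.8 (1.51 ± 0.21, adjusted p = 0.00467). The values of the classes did not overlap. LHX6, which marks interneurons born in the medial ganglionic eminence, was at 20.3, 28.5, 9.68 and 7.98 CPM against 0, 17.4, 3.37 and 16.4 and did not pass (0.41 ± 0.41, adjusted p = 0.555). CXCR4, a receptor for migration cues, was the factor of this list that was lower (-1.27 ± 0.22, adjusted p = 0.00861).

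Of 20 tested factors of the lateral and caudal ganglionic eminences and striatum, 5 were higher and 4 lower (median 0.24). The shares over all genes were 5.24% higher and 6.07% lower. ISL1, a LIM factor of striatal and hypothalamic neurons, was at 142, 128, 121 and 135 CPM against 60.4, 52.2, 42.1 and 93.6 (1.14 ± 0.18, adjusted p = 0.00612). NR2F2, a nuclear receptor of the caudal eminence, was at 345, 183, 171 and 110 CPM against 166, 90.8, 63.4 and 55.3 (1.23 ± 0.12, adjusted p = 0.00113). Neither gene overlapped between the classes in the tested libraries. SIX3, BCL11A and ZNF503 were also higher, by 1.51-fold to 1.94-fold. EBF1 (-1.95 ± 0.38), MEIS1 (-1.5 ± 0.17), FOXP2 (-0.85 ± 0.15) and FOXP1 (-0.61 ± 0.11) were lower, although all of these are also known from striatal development. Of 8 tested genes of striatal output neurons, CNR1 and RGS9 were higher and PDE10A lower, although RGS9 changed sign after thinning (-0.02), and of 2 tested telencephalic factors neither passed.

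Hypothalamic and prethalamic factors mostly did not pass, with 2 higher and 1 lower of 15 tested (median -0.17). The shares over all genes were 5.24% higher and 6.07% lower, so these few calls do not set this list apart. HMX2, a homeobox factor of the hypothalamus, was at 94.8, 24.9, 43.1 and 59.1 CPM against 30.2, 11.2, 6.32 and 5.08 (2.76 ± 0.30, adjusted p = 0.0013), with no overlap in the tested libraries. SIX6, an eye and hypothalamus factor, was higher (1.95 ± 0.33) and SIM1, which specifies neurosecretory neurons, lower (-2.59 ± 0.39). Factors of midbrain and hindbrain GABAergic neurons had 3 of 7 lower and none higher. EN1, which marks the midbrain and anterior hindbrain, was at 6.77, 1.28, 1.51 and 2.84 CPM against 60.4, 46, 3.79 and 7.9 (-2.47 ± 0.61, adjusted p = 0.0288). EN2 (-2.26 ± 0.43) and PAX5 (-1.76 ± 0.41) had their highest DLX-negative level in D28 B, at 78.3 and 193 CPM. PAX5 went the other way in D45 B, at 6.9 CPM in DLX-positive and 3.95 in DLX-negative cells. When only DLX-negative cells without GATA3 were compared, EN1 no longer passed.

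**Figure D2:**
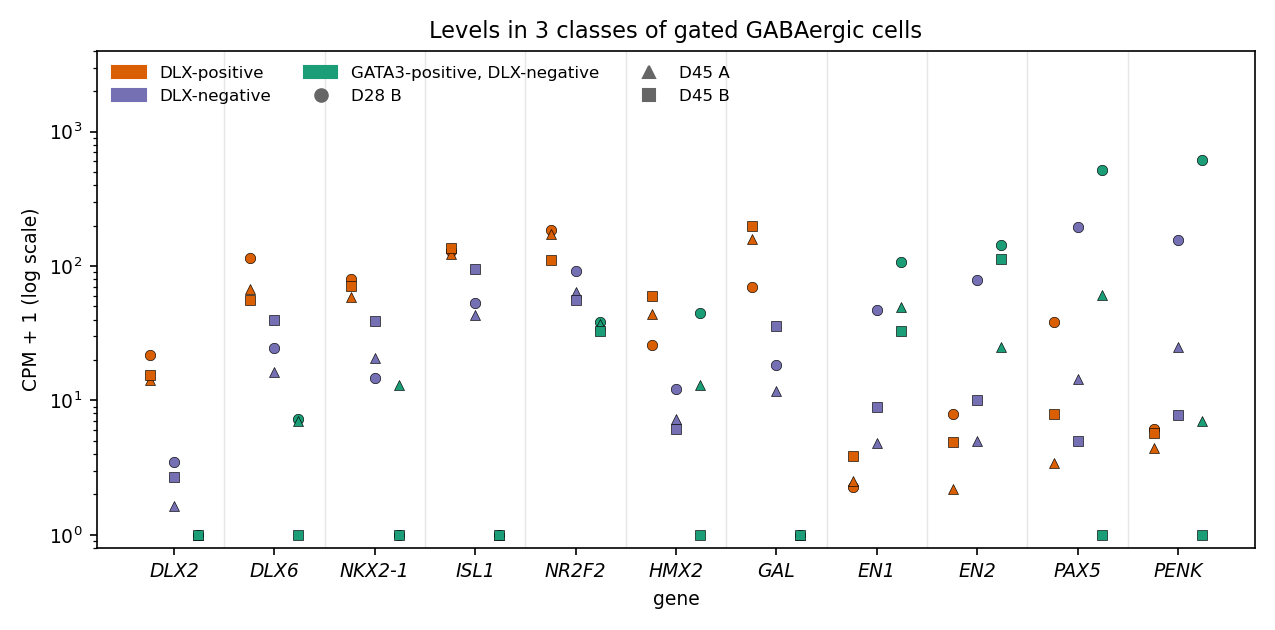
CPM plus 1, on a log scale, of 11 genes in DLX-positive (orange), DLX-negative (purple) and GATA3-positive DLX-negative (green) cells of D28 B, D45 A and D45 B, 1 point per library. DLX2, DLX6, NKX2-1, ISL1, NR2F2, HMX2 and GAL are higher in orange than in purple in each library, and EN1 and PENK lower.

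**Figure D3:**
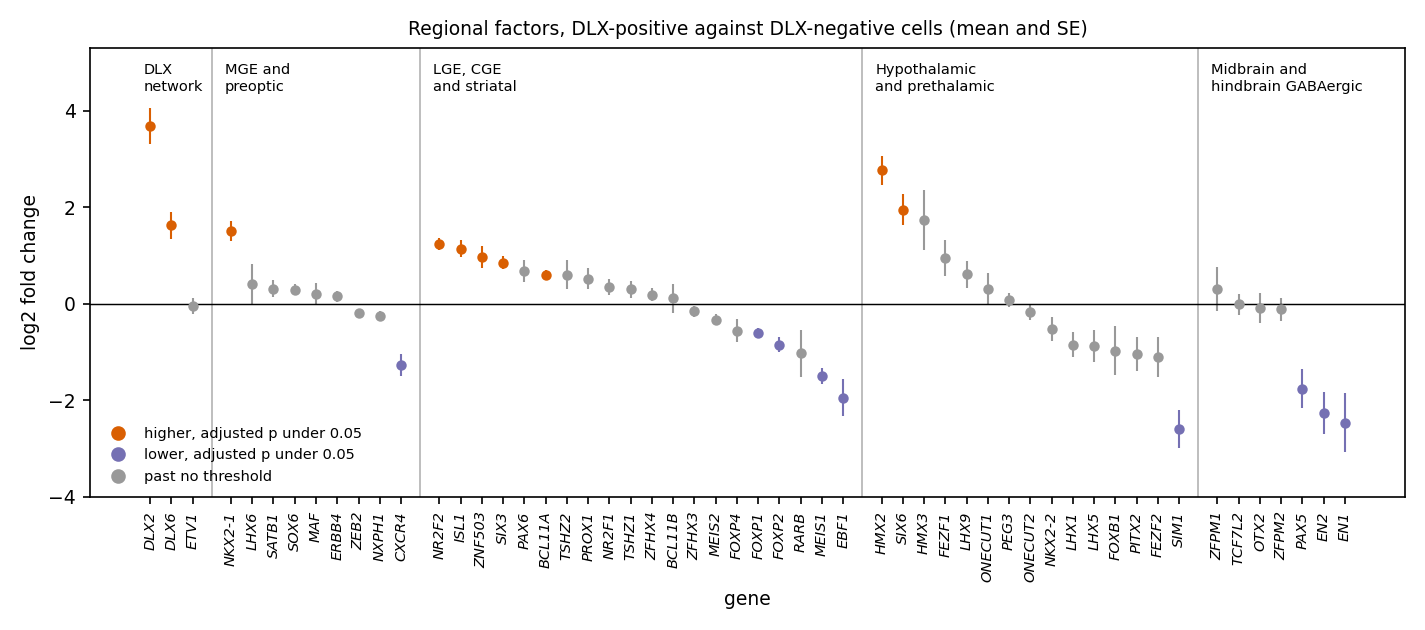
Log2 fold changes of regional factors, DLX-positive against DLX-negative cells, with standard errors, grouped by list and ordered by size. Orange and purple points passed an adjusted p of 0.05 higher and lower, and grey points did not. DLX2 (3.68) and HMX2 (2.76) lie highest, and SIM1 (-2.59) and EN1 (-2.47) lowest.

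Neuropeptide genes and interneuron markers were often higher, with 7 of 20 tested higher and 1 lower (median 0.47). Among all genes tested, 5.24% were higher and 6.07% lower. GAL, which encodes galanin, was at 102, 68.8, 157 and 196 CPM against 106, 17.4, 10.7 and 35 (3.07 ± 0.26, adjusted p = 0.00062). Its DLX-positive values lay above all DLX-negative values in the 3 tested libraries, while D28 A showed no such gap. CARTPT, PTHLH, TAC3, PNOC, RELN and VGF were higher as well, from 0.55 ± 0.15 for VGF to 2.28 ± 0.29 for CARTPT. PENK was at 6.77, 5.13, 3.43 and 4.74 CPM against 1148, 155, 24 and 6.77 (-2.97 ± 0.55, adjusted p = 0.0111), so its excess in DLX-negative cells was large on D28 and small in D45 B. In D28 B, 19 of the 100 DLX-negative cells were GATA3-positive, and PENK was higher in these than in the whole class. Part of its excess in that library thus came from GATA3-positive cells. SST, which encodes somatostatin, did not pass (-0.34 ± 0.27, adjusted p = 0.468), at 13.5, 57.5, 277 and 784 CPM against 0, 174, 199 and 1054.

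Genes of immature and migrating neurons were higher in 8 of 15 tested and lower in none (median 0.62). IGFBPL1, a marker of newborn neurons, was at 338, 330, 317 and 259 CPM against 15.1, 114, 81.5 and 101 (1.69 ± 0.13, adjusted p = 0.000456), without overlap. STMN1 (0.99 ± 0.16), TUBB3 (0.91 ± 0.18), CD24 (0.87 ± 0.13), SOX11 (0.62 ± 0.11) and DCX (0.45 ± 0.12) followed, with NREP and TUBB2B. The shares of transmission genes that passed were near that of all genes (11.3%). SYN2, a synaptic vesicle protein, was lower (-0.69 ± 0.13), while the other 6 of 7 tested genes of GABA synthesis, release and uptake did not pass. Of 12 GABA receptor subunits, GABRA3 was higher and none lower. Of 19 synaptic release genes SV2A and NRXN3 were higher.

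Glutamate transporter and receptor genes were lower in 6 of 17 tested and higher in none (median -0.23). SLC17A6 was at 0, 14.1, 8.27 and 6.9 CPM against 0, 31.1, 33.5 and 22.6 (-1.64 ± 0.22, adjusted p = 0.00383), and the tested libraries did not overlap. The metabotropic receptor gene GRM3 was also lower (-1.05 ± 0.29). Dopaminergic genes split. TH (0.77 ± 0.18) and the vesicular monoamine transporter SLC18A2 (1.25 ± 0.29) were higher, while DDC (-0.81 ± 0.20), LMX1B (-1.97 ± 0.47) and FOXA1 (-1.29 ± 0.30) were lower, of 10 tested. Potassium and calcium channel genes were lower in 4 of 24 and higher in none, led by CACNA2D1 (-1.45 ± 0.15). Guidance and adhesion genes were lower in 7 of 27, among them ROBO2 and CDH13, and higher in 1, NRP1. None of 6 chloride transporters passed, and of 5 sodium channels SCN9A was lower. Over all genes 11.3% passed, so these few calls do not set the channel and transporter lists apart.

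Beyond the lists, the genes with the largest rises that met the naming rule also included FZD5, a Wnt receptor (1.58 ± 0.33), ZIC1 (1.43 ± 0.23), the imprinted gene PEG10 (1.25 ± 0.14) and ENC1 (1.24 ± 0.26). PEG10 was at 3804, 3997, 2578 and 3090 CPM in DLX-positive and 1375, 1751, 876 and 1725 in DLX-negative cells, without overlap. The largest falls were those of COL23A1 (-2.52 ± 0.25), IQCJ (-2.2 ± 0.32), CCDC3 (-2.19 ± 0.23), CRHBP (-2.03 ± 0.20), TMEM132C (-2.02 ± 0.13), GLIS3 (-1.97 ± 0.15) and PDE3A (-1.97 ± 0.17), beside PENK, EBF1 and COL3A1.

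Some markers of other cell types were lower in DLX-positive cells, though not in each library. The 9 mitosis genes summed to 122, 113, 93.9 and 69 CPM against 181, 308, 247 and 68.2, with TOP2A, CENPF and UBE2C lower of 7 tested. The 6 astrocyte markers summed to 40.6, 82.4, 149 and 160 CPM against 15.1, 107, 243 and 287, with SLC1A3 and GFAP lower of 5 tested. The 5 fibroblast markers summed to 88, 64.7, 53 and 222 CPM against 2251, 54.7, 345 and 420, with COL1A1, COL1A2 and COL3A1 lower of 5 tested. The sums went the other way for mitosis genes in D45 B, astrocyte markers in D28 A and fibroblast markers in D28 B. Of the other lists, 1 of 6 oligodendrocyte markers (OLIG1), 3 of 5 floor plate markers (RSPO2, FOXA1, SPON1) and 1 of 6 radial glia markers (VIM) were lower and none higher. Over all genes 6.07% were lower, so 1 of 6 does not set a list apart. In the ciliated, immediate early and stress lists, CCDC39, DUSP1 and HSPA8 were higher, and NR4A3 and BAG3 lower. A gate for glial, fibroblast or mitotic genes was met by 11.8%, 1.55%, 8.51% and 9.92% of DLX-positive and 14.3%, 4.0%, 18.3% and 18.8% of DLX-negative cells. Without those cells, which was chosen after seeing the data, 890 genes passed, of which 817 were among the 1514, and COL3A1 (0.03) and TOP2A (0.16) changed sign. COL3A1 and TOP2A are among the genes of that gate, so their values there are partly set by it.

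The calls leaned on D45 A and on pairing the classes within a library. Without D45 A, 159 genes passed and 25 of the 71 genes named for this comparison kept their call, among them DLX2, NKX2-1, NR2F2, HMX2, GAL and IGFBPL1. With no library term, edgeR called 0 genes (1366 at an unadjusted p under 0.05) and DESeq2 101.

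The second comparison set DLX-positive cells against the GATA3-positive cells of the same gate, a class marked by a factor of midbrain GABAergic neurons. DLX-positive cells were higher in DLX6, NKX2-1, ISL1, PAX6 and GAL, and lower in GATA2, EN1, EN2, PAX5 and PENK. The falls of PAX5 and PENK rested on D28 B and went the other way in D45 B. Only 1, 19, 16 and 5 GATA3-positive cells were found in D28 A, D28 B, D45 A and D45 B, so the sums of the last 3 libraries were tested with a minimum of 5 cells. By the same edgeR test, 181 (1.56%) of 11604 genes passed, 47 (0.405%) higher and 134 (1.15%) lower. These GATA3-positive cells are part of the DLX-negative class, and the DLX-positive cells are the same as in the first comparison.

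GAL, ISL1 and PAX6 had no UMI in any of the 41 GATA3-positive cells. Limits were set with the tested libraries pooled, at 3 counts over their 40 such cells. In this pool GAL was at least 20-fold higher in DLX-positive cells and ISL1 at least 16.5-fold. These limits cover counting error only and are not limits for each library. Without D45 A the limit for GAL was 11.3-fold, and without D28 B and without D45 A that for ISL1 was 9.66-fold and 9.85-fold. PAX6, a homeobox factor of the dorsal forebrain and of some GABAergic lineages, was at least 12.4-fold higher, but this limit leaned on D45 B, and without that library it was 4.56-fold. DLX6 was at 6.24, 6.03 and 0 CPM in the GATA3-positive cells of D28 B, D45 A and D45 B (4.06 ± 0.72, adjusted p = 1.6e-05) and NKX2-1 at 0, 12.1 and 0 (3.76 ± 0.74, adjusted p = 0.000186). Both lay below every DLX-positive library. These low levels rest on a few UMIs. TH was at 18.7, 0 and 0 CPM (3.44 ± 0.66, adjusted p = 0.000135), and IGFBPL1 (2.74 ± 0.38) and CRABP1 (3.75 ± 0.50) were also higher in DLX-positive cells.

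In the other direction, EN1 was at 106, 48.2 and 32 CPM in the GATA3-positive cells of D28 B, D45 A and D45 B against 1.28, 1.51 and 2.84 in DLX-positive cells (-5.02 ± 0.75, adjusted p = 1.27e-07). EN2 was at 143, 24.1 and 112 CPM against 6.93, 1.21 and 3.92 (-4.44 ± 0.65, adjusted p = 6.65e-08). The engrailed genes did not overlap between these classes. PAX5 was at 518, 60.3 and 0 CPM (-3.6 ± 0.44) and PENK at 618, 6.03 and 0 (-4.55 ± 0.57), so both rested on D28 B. In D45 B both were higher in the DLX-positive cells, since the 5 GATA3-positive cells there held no UMI of either. CRHBP, which encodes a protein that binds corticotropin-releasing hormone, was at 225, 271 and 2432 CPM against 16.7, 5.45 and 20.4 (-5.46 ± 0.36, adjusted p = 4.44e-31). Its GATA3-positive sums held 19, 16 and 5 cells and differed widely. The SE and p-value therefore do not describe its spread between libraries. UNCX, OTX1, LHX5, EMX2 and ZFPM2 were lower in DLX-positive cells as well, from -5.74 ± 0.80 for UNCX to -2.06 ± 0.31 for ZFPM2. CCDC3, IGFBP4 and ADAMTS19 were high in D45 B alone, at 784, 832 and 352 CPM in 5 cells.

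By list, midbrain and hindbrain GABAergic factors were lower in 5 of 7 tested (median -3.6), and 1 of 3 DLX network genes was higher, DLX6, while the median over all genes was 0.1. DLX2 had no UMI in the GATA3-positive cells. Lateral, caudal and striatal factors had 4 of 19 higher and 1 lower, and hypothalamic and prethalamic factors 3 of 10 lower. GABA receptor subunits had GABRG3 higher and none lower of 12. None of 19 synaptic release genes passed. Over all genes 0.405% were higher and 1.15% lower, so these counts do not set the receptor and release lists apart. Without D28 B 73 genes passed, without D45 A 60 and without D45 B 289, and ISL1, EN2, CRHBP and IGFBPL1 kept their call in each of the 3.

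The DLX-positive cells were not uniform. With each cell thinned to 4000 UMIs, which left 374, 914 and 722 cells of D28 B, D45 A and D45 B and dropped 14, 26 and 44, the number of cells holding both genes of a pair was set against the number expected if the genes were independent within the library. ISL1 and GAL met in 18, 77 and 72 cells, against 6.58, 34.0 and 37.7 expected, so they came together in all 3 libraries. NKX2-1 and GAL met in 11, 44 and 47 cells, against 7.14, 27.0 and 25.6. In D28 B and D45 A, LHX6 and ISL1 kept apart, with 0 and 1 cells, against 5.92 and 6.66 expected. LHX6 and NKX2-1 met in 14 and 15 cells there, against 6.43 and 5.3. D45 B is not described for these pairs.

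On D45, where PAX6, MEIS2 and SST were frequent enough, they were found in the same cells. PAX6 and MEIS2 met in 25 and 63 cells of D45 A and D45 B (3.39 and 3.84 times the expected number), PAX6 and SST in 19 and 48 (3.73 and 3.63 times) and MEIS2 and SST in 17 and 37 (2.78 and 3.45 times). PAX6 and GAL met in only 3 and 3 cells (0.247 and 0.129 times), and PAX6 and HMX2 in 0 and 1, where 9.6 and 21.6 were expected. PAX6 and NKX2-1 also met in few cells, 6 and 2, against 13.7 and 22.3. PAX6 thus kept apart from HMX2, GAL and NKX2-1 in both D45 libraries. Cells of a library share its free RNA and are not replicates, so these ratios carry no test.

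**Figure D4:**
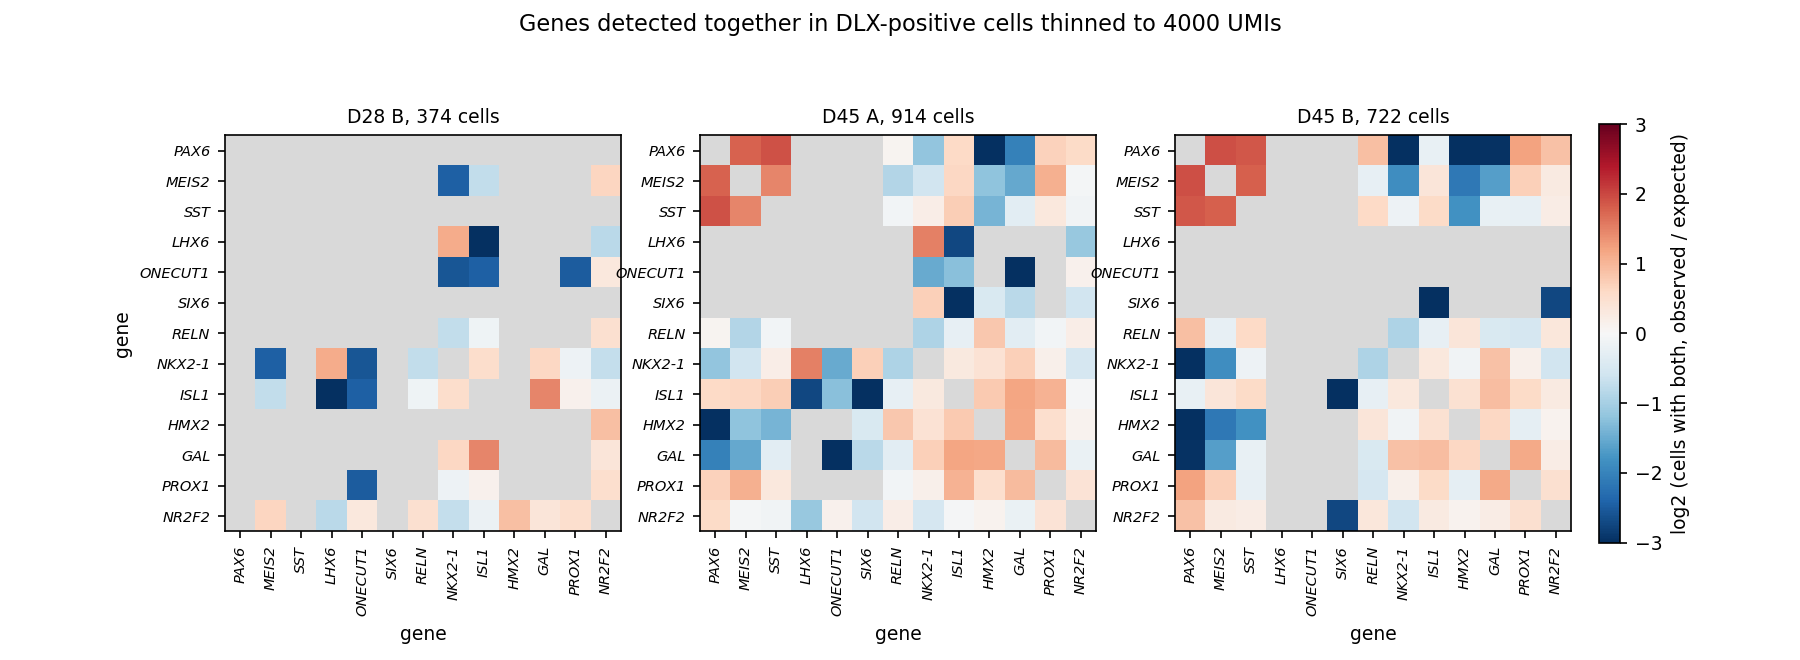
Log2 ratio of observed to expected numbers of DLX-positive cells that hold both genes of a pair, after thinning to 4000 UMIs, in D28 B, D45 A and D45 B. Red pairs meet more often and blue pairs less often than independent genes would, grey pairs had fewer than 5 expected cells, and colours end at -3 and 3. PAX6 is blue with HMX2 and GAL and red with MEIS2 and SST on D45, and ISL1 with GAL is red in each library.

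Split by these genes, a choice made after the ratios were seen, 1, 19, 101 and 136 members of D28 A, D28 B, D45 A and D45 B held PAX6 without HMX2 or GAL. The reverse, HMX2 or GAL without PAX6, was held by 6, 78, 293 and 292, which was 35.3%, 20.1%, 31.2% and 38.1% of members. Only 0, 0, 12 and 14 held genes of both kinds, and 10, 291, 534 and 324 held none. The following levels describe D28 B, D45 A and D45 B and carry no test, since the split was made on the same cells, and those of D28 B rest on 19 PAX6 cells.

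ISL1 was at 41, 173 and 130 CPM in the PAX6 cells and at 272, 218 and 196 in the HMX2 or GAL cells. NKX2-1 was at 9.12, 16 and 6.72 against 82, 82.8 and 82.3 CPM. HMX3, a relative of HMX2, was at 0 in the former and at 15.1, 10.2 and 26.4 CPM in the latter. These genes were thus higher on the side of HMX2 and GAL, by the smallest margin for ISL1 in D45 A. On D45, however, ISL1 did not keep clearly apart from the genes of the PAX6 side. In the thinned cells of D45 A and D45 B, ISL1 met PAX6 in 26 and 28 cells, against 17.2 and 32.8 expected. It met MEIS2 in 32 and 34, against 20.7 and 26.6 expected, and SST in 24 and 32, against 14.2 and 21.4. It met HMX2 in 46 and 48, against 26.9 and 35.0 expected. TCF7L2, a Wnt effector, was at 13.7, 37.9 and 26.9 against 80.9, 100 and 95.2 CPM, and CARTPT at 0, 2.53 and 1.34 against 52.9, 10.2 and 12.5. SST was at 0, 1194 and 3096 against 3.24, 84.6 and 249 CPM, so it was on the side of PAX6 on D45 only. MEIS2 was at 45.6, 421 and 828 against 16.2, 19.1 and 35.6 CPM. The neuregulin receptor gene ERBB4, a marker of many interneurons, was at 410, 644 and 826 against 268, 310 and 439 CPM. MEIS2, ERBB4, ZEB2, CDH8, ONECUT1 and CNTN5 were higher in the PAX6 cells in each of the 3 libraries, whereas KCND2 was higher there on D45 and lower in D28 B.

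The third comparison asked how DLX-positive cells of D45 differed from those of D28. SST, SIX3, MEIS2 and GAL were higher on D45, and TAC3, CARTPT, ONECUT1, LHX6, FOXP2 and the activity-linked genes FOS and EGR1 were lower. With predicted doublets removed, SST, MEIS2, GAL, LHX6 and FOXP2 kept their direction but missed the threshold. FOXP2 also overlapped between days once D28 A was counted. D28 is represented in the fit by library B alone, because D28 A held 17 cells, so that library was assumed to vary like the D45 pair. In sums, a change in the mix of cells and a change within cells cannot be told apart. By edgeR, 397 (2.65%) of 15007 genes passed after Benjamini-Hochberg adjustment, 219 (1.46%) higher on D45 and 178 (1.19%) lower.

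SIX3, a homeobox factor of the anterior forebrain, was at 0, 30.5, 192 and 183 CPM in D28 A, D28 B, D45 A and D45 B (log2 fold change 2.62 ± 0.27, adjusted p = 0.000469). SST was at 13.5, 57.5, 277 and 784 CPM (3.21 ± 0.50, adjusted p = 0.00555), with D45 B the highest. Both genes were higher in each D45 library than in each D28 library. SST was detected in 5.88%, 3.87%, 10.1% and 15% of members, and in 2.53%, 5.96% and 7.93% of oligodendrocyte-gated cells of D28 B, D45 A and D45 B, and in 2.58%, 2.58%, 4.75% and 9.15% of fibroblast-gated cells of the 4 libraries. MEIS2, a factor of the lateral eminence, was at 6.77, 44.9, 93.6 and 230 CPM (1.85 ± 0.43, adjusted p = 0.039), but was detected in a smaller share of members than of fibroblast-gated cells in every library. PAX6 was at 6.77, 22.1, 49.7 and 196 CPM and did not pass (2.48 ± 0.62, adjusted p = 0.0536). CALB2, a calcium-binding protein of interneurons, rose by 1.86 ± 0.37, LHX2 by 1.49 ± 0.34, GAL by 1.37 ± 0.26, SOX6 by 1.05 ± 0.23 and ZEB2 by 0.99 ± 0.24. None of these 5 passed with predicted doublets removed (adjusted p = 0.0625 to 0.244), with CALB2, LHX2, GAL and SOX6 at 2.03, 1.49, 1.35 and 1.05 and ZEB2 at 0.66.

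Among the falls, TAC3, which encodes neurokinin B, was at 33.8, 127, 17.1 and 17.5 CPM (-2.87 ± 0.23, adjusted p = 0.000136). PDYN, the dynorphin precursor, was at 0, 27, 3.23 and 2.98 CPM (-3.1 ± 0.34, adjusted p = 0.000718), so only D28 B was high, and without it the fall was lost. CARTPT was at 40.6, 55.5, 12.9 and 9.61 CPM (-2.28 ± 0.27, adjusted p = 0.00106) and was lower in each D45 library than in each D28 library. Neuropeptides and interneuron markers had 3 of 26 higher and 4 lower, against 1.46% of all genes higher and 1.19% lower. PNOC, the nociceptin precursor, was at 602, 368, 89.2 and 201 CPM and did not pass (adjusted p = 0.0568).

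Markers of the floor plate were lower on D45 as well. Of 5 tested, CORIN (-3.18 ± 0.41), FOXA1 (-2.21 ± 0.38) and SPON1 (-1.79 ± 0.23) were lower and none higher, and of 6 radial glia markers HES1 (-1.82 ± 0.45) and NES (-1.22 ± 0.26) were lower. Among all genes tested, 1.19% were lower on D45. The 6 floor plate markers summed to 6.77, 156, 41.8 and 47 CPM in the members, with 5, 0, 0 and 1 of them at 0, and to 596, 1000, 172 and 240 CPM in the rest of the cells within the limits, so D28 B alone was high among the members. With predicted doublets removed CORIN (-1.72 ± 0.51), FOXA1 (-1.11 ± 0.44), SPON1 (-0.43 ± 0.26), HES1 (-0.47 ± 0.59) and NES (-0.86 ± 0.26) lost their calls, while TAC3 (-2.87 ± 0.22) and PDYN (-3.13 ± 0.33) kept theirs.

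Of the transcription factors that were lower, ONECUT1 was at 20.3, 68.3, 13.8 and 6.36 CPM (-2.73 ± 0.34, adjusted p = 0.00116), and ONECUT2 (-1.47 ± 0.27) and LHX1 (-2.05 ± 0.38) were lower as well. With predicted doublets removed ONECUT1 kept its call, and ONECUT2 (-1.5 ± 0.27, adjusted p = 0.0584) and LHX1 (-2.07 ± 0.40, adjusted p = 0.0651) missed the threshold. LHX6 was at 20.3, 28.5, 9.68 and 7.98 CPM (-1.68 ± 0.30, adjusted p = 0.0113), and LHX8, its relative in cholinergic and GABAergic neurons, was at 0, 8.47, 0.504 and 0.271. ZFHX4 was at 332, 759, 243 and 254 CPM (-1.61 ± 0.20, adjusted p = 0.00116) and FOXP2 at 54.2, 209, 71.4 and 51 (-1.76 ± 0.24, adjusted p = 0.00218), and FOXP2 overlapped between days once D28 A is counted. FOS was at 122, 64.7, 22.6 and 21.5 CPM (-1.55 ± 0.24, adjusted p = 0.00562) and EGR1 at 74.5, 33.9, 5.75 and 5.14 (-2.62 ± 0.30, adjusted p = 0.000806). These immediate early genes respond to activity and to tissue handling, and both were lower in each D45 library.

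**Figure D5:**
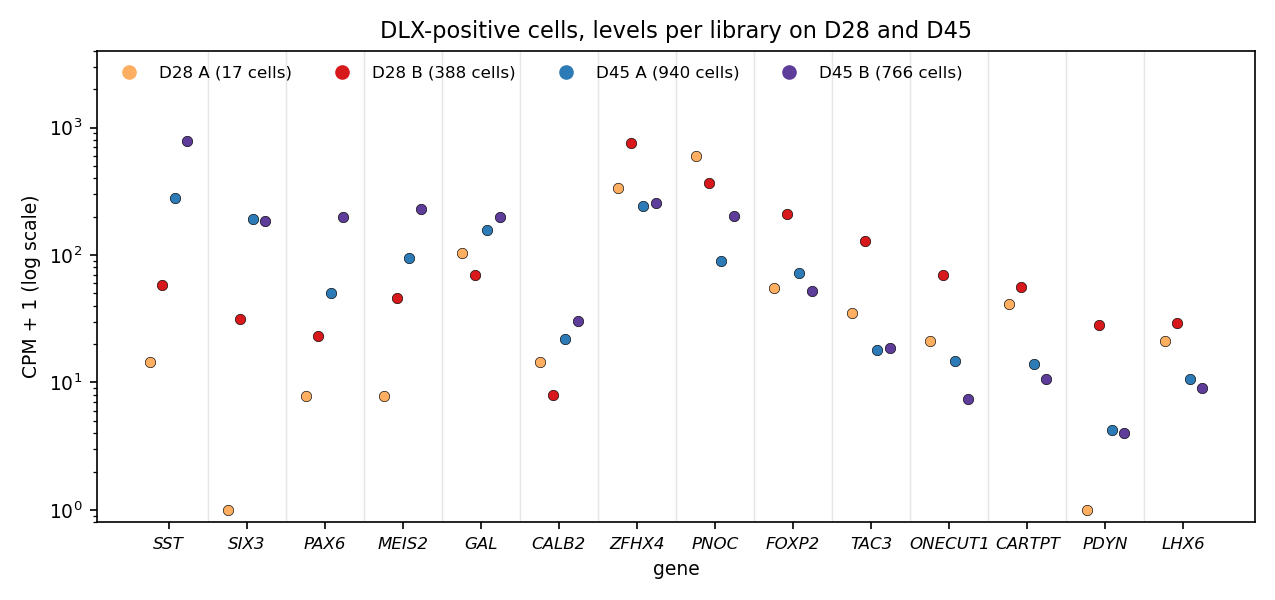
CPM plus 1, on a log scale, of 14 genes in the DLX-positive cells of each library, 1 point per library. SST and SIX3 are higher in each D45 library than in each D28 library, and CARTPT and LHX6 lower, while PDYN is high in D28 B alone.

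No gene of the GABA machinery passed between days, which in lists of this size is near the share of all genes that passed (2.65%). None of 8 tested genes of GABA synthesis, release and uptake passed, none of 13 receptor subunits, none of 6 chloride transporters, none of 5 sodium channels and none of 4 DLX network genes. In the regional lists, 2 of 10 medial eminence factors were higher and 2 lower, 2 of 20 lateral, caudal and striatal factors higher and 3 lower, and 1 of 18 hypothalamic and prethalamic factors higher and 3 lower. Guidance and adhesion genes had 4 of 27 higher, among them NRP2 (1.35 ± 0.24) and UNC5C (1.29 ± 0.24), and 9 lower, among them EPHA4 (-1.28 ± 0.24), ROBO2 (-1.21 ± 0.25), SEMA3A (-1.17 ± 0.27) and DCC (-0.91 ± 0.21). None of these 6 passed with predicted doublets removed (adjusted p = 0.0566 to 0.119), at log2 fold changes of 1.3, 1.23, -1.22, -1.21, -1.17 and -0.92. ISG15 and IFI6, which interferon is known to induce, fell by 2.7 and 2.07 on the log2 scale, but with predicted doublets removed neither passed (-2.0 ± 0.34, adjusted p = 0.0516, and -1.33 ± 0.34, adjusted p = 0.121). The cold-induced RBM3 fell by 2.14 and kept its call there.

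Of 5 astrocyte markers tested AQP4, GFAP and SLC1A3 were higher on D45, and of 6 oligodendrocyte markers MAG and MBP, with none lower in either list, against 1.46% of all genes higher. AQP4 and MAG had no UMI in either D28 library. With predicted doublets removed, or with cells of a glial, fibroblast or mitotic gate removed, AQP4 and GFAP passed, and SLC1A3 (1.54 ± 0.33 and 1.37 ± 0.37, against 1.48 ± 0.31) and MAG did not. MBP, a myelin protein, was at 6.77, 2.57, 97.2 and 42.8 CPM in DLX-positive cells (4.77 ± 0.59), and BCAS1, CLDN11, SPARCL1, SLCO1C1 and APOE rose as well. The 7 oligodendrocyte markers summed to 13.5, 11.8, 151 and 81.2 CPM in DLX-positive cells and to 21.6, 71.1, 833 and 621 CPM in the rest of the cells within the limits, so both sums were higher in each D45 library. The 6 astrocyte markers summed to 40.6, 82.4, 149 and 160 CPM against 147, 159, 549 and 557 in the rest. All 7 oligodendrocyte markers had a UMI in the DLX-positive cells of both D45 libraries. With predicted doublets removed the rise of MBP was 3.19 ± 0.41, with cells of a glial, fibroblast or mitotic gate removed 2.42 ± 0.45, and it passed in both. CLDN11 passed in both at a smaller size (4.18 ± 0.65 and 3.39 ± 0.75, against 6.16 ± 0.97). SPARCL1 (3.74 and 3.64, against 3.86), SLCO1C1 (3.0 and 3.34, against 3.77) and APOE (3.39 and 3.34, against 3.67) passed in both, while BCAS1 passed in neither (2.33 ± 0.52 and 1.52 ± 0.53, against 4.13 ± 0.49). The part of free RNA in these rises was not tested. AQP4, GFAP, SLC1A3, MAG and MBP are among the genes of the glial gate, so their values without the gated cells are partly set by it.

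The number of calls between days depended on single libraries and on doublets. With predicted doublets removed 58 of the 397 genes passed, and of the 50 genes named, 18 kept their call, SIX3, TAC3, ONECUT1, CARTPT, FOS and EGR1 among them, while SST (3.2 ± 0.58, adjusted p = 0.0601), MEIS2 (1.84 ± 0.49, adjusted p = 0.134), GAL (1.35 ± 0.25, adjusted p = 0.0625) and LHX6 (-1.67 ± 0.29, adjusted p = 0.0536) missed the threshold at nearly the same log2 fold change. FOXP2 (-1.5 ± 0.26, adjusted p = 0.0536) missed it too. Of the 397 genes, 395 could be tested there, and all 395 kept their direction. Blocking on the letter of the library, with a minimum of 5 cells, kept the call of 23 of the 49 named genes tested. Leaving out either D45 library at that minimum also took the call from most named genes. With a minimum of 5 cells, so that D28 A entered, and D28 B left out, FOXP2 (0.15), ONECUT2 (0.5), ROBO2 (0.05) and DCC (0.13) changed sign. The median of all genes in that fit was 0.57, against 0.02 with D28 B, and these 4 genes lay below it. SIX3 and EGR1 kept their call in every alternative run for the days.

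Whether the change between days differed between DLX-positive and DLX-negative cells was tested by the interaction of day and class in the same 3 libraries. Of 15016 genes 96 (0.639%) passed, 44 (0.293%) with a larger value in DLX-positive cells and 52 (0.346%) with a smaller one. PENK stood out (2.91 ± 0.48, adjusted p = 3.17e-06), since it fell from 155 to 24 and 6.77 CPM in DLX-negative cells while it stayed at 5.13, 3.43 and 4.74 in DLX-positive cells. NTS, which encodes neurotensin, went the other way (-3.4 ± 0.42), at 64.2, 5.65 and 29.5 CPM in DLX-positive and 17.4, 12.2 and 97.6 in DLX-negative cells of D28 B, D45 A and D45 B. Of the neuropeptide list, 4 of 25 tested had a larger and 2 a smaller value in DLX-positive cells. D28 was represented by library B alone. GATA3-positive cells, where PENK was highest in D28 B, were 19 of the 100 DLX-negative cells of that library. In D45 A and D45 B they were 16 of 536 and 5 of 218. The make-up of the DLX-negative class thus changed between days, and the interaction was not run without GATA3-positive cells. With a minimum of 5 cells per sum 13 genes passed.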

How the data were processed

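Organoids of 1 line were measured in 6 single-cell libraries, and the 4 of D28 and D45 were used. The authors ran Cell Ranger 8.0.1 against Sscrofa11.1, used Seurat 4.3.0 downstream and deposited raw UMI counts per gene and barcode. The deposited matrices were not normalized. Names came from the files for 16266 of 30477 gene IDs and from the RefSeq tables for 834. Of 380 listed genes 363 were matched. Some genes are not reported here and were left out of the lists and ranks. The members, the 27 gene lists and the tests were chosen with earlier results of these data known.

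Counts were summed per library and class with at least 20 cells (5 for GATA3-positive cells, since no library reached 20, against the plan) and tested with edgeR 4.0.16 (quasi-likelihood test after TMM scaling, p-values adjusted by Benjamini-Hochberg and called under 0.05), with the library as a block where classes were compared. The gate genes were not tested. Log2 fold changes carry standard errors. The summed DLX-positive counts held 147734, 3895327, 9916938 and 7390571 UMIs in D28 A, D28 B, D45 A and D45 B, so a gene at 1 CPM in D28 B rests on about 4 UMIs. Doublets were scored with Scanpy 1.11.5 at 0.4% per 1000 barcodes. The tests were tried on simulated data.

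Named genes were the gate genes, listed genes that passed, reached 50 CPM or define a region or cell type, and ranked genes. The ranked genes of each comparison were the 10 (days and interaction: 8) largest rises and falls. They had to pass and to have a symbol and a mean of at least 20 CPM. In the comparisons of classes they also went the same way in each tested library. For the days both D45 libraries lay on the same side of D28 B. The interaction had no such condition. The libraries are called biological duplicates in the study. If they share a culture, p-values measure only technical spread. The labels do not say what A and B share across days, and the main tests did not pair them. The differences between A and B on D28 and on D45 had a correlation of -0.029 over 13668 genes. D28 A held only 17 cells, so this value cannot decide whether the letters pair the libraries. Alternatives were DESeq2 1.42.0 and its size factors, no filter on low counts, libraries left out, thinning, doublets removed, and other gates, blocks and minimums. R 4.3.3 and Python 3.11.15 were used.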

Additional observations from a re-analysis of the deposited data

Results flagged for a closer look

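The change from D28 to D45 differed between DLX-positive and DLX-negative cells in 96 genes by edgeR's interaction test with Benjamini-Hochberg adjustment, and the 16 named by the rule are given here. The difference of the log2 changes (DLX-positive minus DLX-negative) was 2.91 for PENK, 2.4 for NPY, 2.37 for GFRA1, 2.2 for EBF1, 2.12 for TAC1, 2.03 for KIT, 1.99 for NDST3 and 1.98 for DACH1. DACH1, for example, was at 547 CPM in DLX-negative cells of D28 B and at 188 and 124 on D45, while it was at 162, 215 and 153 in DLX-positive cells. It was -8.81 for FZD5, -3.4 for NTS, -2.82 for CDH20, -2.46 for GAS7, -2.33 for RNF182, -2.18 for GPC3, -2.15 for WFDC1 and -2.06 for ZFP36L1. FZD5 had no UMI in DLX-negative cells of D28 B, so the size of its value depends on the prior count. D28 entered with library B alone. GATA3-positive cells were 19 of the 100 DLX-negative cells there, and 16 of 536 and 5 of 218 on D45. The interaction was not run without them. Of the 16 genes, 4 kept their call with a minimum of 5 cells per sum, 4 with doublets removed and 1 with DESeq2. Without D28 B, at 5 cells per sum, 6 changed sign, among them ZFP36L1, which passed in the opposite direction (4.81, adjusted p = 0.00049), in a fit whose median over all genes was -0.2, against -0.01.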

How the results depend on the processing

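For DLX-positive against DLX-negative cells, 1514 genes passed. DESeq2 gave 676, no filter 3069, thinning 978, cells of glial, fibroblast or mitotic gates removed 890, no library block 0, and DESeq2 without the block 101. Leaving out a library gave 159 (without D45 A) to 2097 (without D28 B). For the days, 397 passed, against 225 with DESeq2, 1081 without the filter, 58 with doublets removed, 667 with 2 or more DLX UMIs, and 38 (without D45 A), 43 (without D45 B) and 527 (without D28 B) at a minimum of 5 cells. For DLX-positive against GATA3-positive cells, 181 passed, against 90 with DESeq2, 45 thinned, 14 with no library block, 117 with DESeq2 and no block, and 60 to 289 with a library left out. For the interaction, 96 passed, against 15 with DESeq2's size factors, 1 with DESeq2, 4 thinned, 9 with doublets removed, 12 with gated cells removed, 13 with a minimum of 5 cells, and 0 (99 at an unadjusted p under 0.05), 2 and 46 without D45 B, D45 A and D28 B at that minimum.

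Blocking on the letter of the library (replicate block), with a minimum of 5 cells, gave 79 genes for the days. At 20 cells that block and leaving out D28 B, D45 A or D45 B could not be fitted for the days, nor could the latter for the interaction, and no library held 20 GATA3-positive cells. D28 A was in no sum of 20 cells. For the comparisons of classes no paired analysis by letter was possible because both classes come from the same library, which is the block.

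The share of gated cells with DLX, 74.7% on D28 and 70.5% on D45 as the mean of libraries, was 62.1% and 57.1% with 2 or more DLX UMIs and 79.5% and 46.0% after thinning. The share of cells within the limits on D45, 7.91%, was 6.39% and 1.91%.

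Signs changed for COL3A1 (0.03) and TOP2A (0.16) with gated cells removed, for RGS9 (-0.02) and TAC1 (-0.92) after thinning, and, without D28 B at 5 cells, for FOXP2 (0.15), ONECUT2 (0.5), PDYN (7.19), ROBO2 (0.05), DCC (0.13), HES1 (7.46), CORIN (6.63) and SPON1 (10.49) between days and for GFRA1 (-0.02), EBF1 (-0.73), NDST3 (-1.52), GAS7 (0.34), WFDC1 (0.04) and ZFP36L1 (4.81) in the interaction, where ZFP36L1 passed in the opposite direction (adjusted p = 0.00049) and the others did not pass. ZFP36L1 also changed (0.07) without D45 B. The median over all genes was 0.57 and -0.2 in these fits, against 0.02 and -0.01, so FOXP2, ONECUT2, ROBO2 and DCC were still below the median gene, and GFRA1 above it. PDYN, HES1, CORIN and SPON1 had no UMI in D28 A, so these values depend on the prior count. COL3A1 and TOP2A are among the genes of the gate that removed cells, so their values there are partly set by it. The causes were not tested. The alternatives with gated cells removed, DESeq2 without a block, and 5 cells with the replicate block or a library left out were chosen after seeing the data. D28 A, with 17 cells, and the 41 GATA3-positive cells limit what low genes can show.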
